A study of Rattus norvegicus with 210 samples.

Results

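The mediobasal hypothalamus (MBH) of weanling female rats born to dams given diethylstilbestrol (DES) was compared with that of control females of the same age. Libraries were chosen by the tissue, group and age in their labels: the 5 of group D6 and the 5 of the control group, all of the MBH at postnatal day (PND) 22, 10 of the 210 libraries of the series. D6 females were the offspring of Sprague-Dawley dams that received 6 µg of DES per kg of body weight per day by gavage, and the dams of control females received the corn oil vehicle. Dosing of the dams began on gestation day 7 and ran to weaning at PND22 with a pause around birth, so that pups met the compound through the placenta and the milk. Every library came from another rat. The labels do not say which rats were littermates, so p-values measure the spread between these libraries. For context, levels in the same tissue and age are given for D3 and D12, whose dams received 3 and 12 µg of DES per kg of body weight per day, and for K3, K6 and K12, whose dams received 3, 6 and 12 mg per kg per day of ketoconazole, an antifungal drug that inhibits steroid synthesis. D6 and control libraries of later ages (MBH, PND42 and PND90) and of the preoptic area (POA, PND22) are compared at the end.

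The MBH holds the arcuate nucleus, whose neurons sense energy stores through Agrp and Pomc and drive pulses of gonadotropin-releasing hormone (GnRH) through kisspeptin, and the ventromedial nucleus, marked by the transcription factor Nr5a1. It lies below the thalamus, between the supraoptic, paraventricular and suprachiasmatic nuclei in front and the mammillary bodies behind. DES is a synthetic estrogen that binds both nuclear estrogen receptors. Estrogens present before puberty act on the feedback circuits that set its timing. In the same weeks oligodendrocyte precursors pass through a short newly formed stage, marked by Gpr17, and become myelinating cells.

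Counts on genes came to 17855000 to 23779317 reads in each library, and levels are given as counts per 1000000 of these reads (CPM). D6 replicate 1 stood apart from the other 9 libraries. Ribosomal protein genes took 2.81% of its reads and 1.07 to 1.39% elsewhere, and the choroid plexus markers summed to 428 CPM in it against 20 to 31.6 CPM. Arcuate and ventromedial markers were present in both groups, with the exception of Npy, which was listed at 0 in all 10 libraries. Mammillary markers had an overlapping range of mean log2(CPM + 0.5), from 2.08 to 3.08 in control and from 2.03 to 2.84 in D6, with 0 of 9 called by edgeR and 1 by DESeq2. Counts in several gene lists are also given without D6 replicate 1.

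In D6, 803 of 14853 genes were called, with a Benjamini-Hochberg adjusted p-value under 0.05 against control in the quasi-likelihood test of edgeR, which is 5.41% of the genes tested. Of these, 466 were higher (3.14%) and 337 lower (2.27%). Scaling by library size alone called 331 higher and 467 lower, so that the balance of directions depends on the scaling. Median log2 fold changes were 0.86 for the higher and -0.65 for the lower genes, beside 0.02 over all genes tested. A log2 fold change over 1 was found for 194 of the called genes and one under -1 for 70. The CPM of the groups did not overlap for 694 of the called genes, and for 13.2% of all genes tested. The number called was 2242 without D6 replicate 1, which is 15% of the genes tested, with 1145 higher and 1097 lower. When any other library was left out it lay between 167 (without control replicate 1, 1.12% of the genes tested) and 823. Counts in gene lists from these fits stand beside these shares.

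Markers of thalamic relay neurons were among the largest increases in D6. The lists of cell types and pathways used here were chosen with earlier results of these data known. Their counts are therefore not independent evidence of a direction, and they stand beside the 3.14% higher and 2.27% lower of all genes. Of the 18 genes of the thalamic list, 12 rose and 0 fell, and the median log2 fold change of the list was 2.11. Without D6 replicate 1 the same numbers were called, with a median of 2.04, and without control replicate 1 only 2 were called, with a median of 2.08. Shox2, a homeobox transcription factor of thalamic neurons that is not in the list, was at 0, 0.0537, 0.0929, 0.217 and 0.0444 CPM in control replicates 1 to 5 and at 27.5, 48.2, 2.02, 10.4 and 3.6 CPM in D6 replicates 1 to 5. All 5 D6 libraries lay above all controls, and D6 replicates 1 and 2 were far higher than replicates 3 and 5. The log2 fold change was 7.89 (SE 1.16, adjusted p = 0.0056), its size resting on very few control reads. Prkcd, a protein kinase C isoform that marks relay neurons, was at 15.4, 11.4, 14.4, 7.96 and 13 CPM in control replicates 1 to 5 and at 319, 513, 19.2, 123 and 66.1 CPM in D6 replicates 1 to 5. Ptpn3, a tyrosine phosphatase of the same neurons, was at 8.54, 8.38, 7.8, 8.99 and 8.39 CPM in control replicates 1 to 5 and at 181, 330, 19.6, 106 and 56.4 CPM in D6 replicates 1 to 5. Gabrd, the delta subunit of extrasynaptic GABA-A receptors, was at 1.59, 2.2, 1.86, 1.25 and 1.95 CPM in control replicates 1 to 5 and at 98.8, 74.8, 2.35, 14.5 and 8.25 CPM in D6 replicates 1 to 5. D6 replicates 1 and 2 were the highest and replicate 3 the lowest for each of these 4 genes. No D6 value reached down to the controls, which was a condition for naming them among the largest increases.

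Log2 fold changes were 4.19 (SE 0.76, adjusted p = 0.014) for Prkcd, 4.16 (SE 0.64, adjusted p = 0.0065) for Ptpn3 and 4.64 (SE 0.93, adjusted p = 0.022) for Gabrd. Gabrd was called in 5 of the 10 fits that left out a library (highest adjusted p = 0.076), and the fits that lost it were those without a control library. Prkcd was called in 8 of the 10 fits and Ptpn3 in all 10. Prkcd, Ptpn3 and Gabrd are in the list, and its other increases included Gbx2, a homeobox gene of thalamic development, with a log2 fold change of 4.52, Lhx9 (2.98), the cell adhesion gene Ntng1 (1.83) and Tcf7l2, a Wnt pathway transcription factor (2.25). Slc17a7, the vesicular glutamate transporter 1 of thalamic and cortical neurons, was at 2.27, 1.83, 2.14, 2.17 and 0.799 CPM in control replicates 1 to 5 and at 68.1, 60.5, 3.14, 11.6 and 7.73 CPM in D6 replicates 1 to 5. Its log2 fold change was 4.19 (SE 0.84, adjusted p = 0.022), and it was called in 5 of the 10 fits that left out a library (highest adjusted p = 0.071). Slc17a6, the vesicular transporter of most hypothalamic glutamate neurons, did not pass the test (log2 fold change 0.08, adjusted p = 0.76). It is also in the thalamic list, among the 6 members that were not called.

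Among genes with a mean log2 CPM of 1 or more and groups without overlap, the 8 largest increases also held Rab37, Yjefn3 and Adra2b. Rab37, a small GTPase of vesicle traffic, was at 0.627, 0.859, 0.604, 0.921 and 1.15 CPM in control replicates 1 to 5 and at 23.6, 22.9, 2.07, 7.02 and 4.55 CPM in D6 replicates 1 to 5. Adra2b, the alpha-2B adrenergic receptor, was at 0.627, 0.376, 0.697, 0.433 and 0.577 CPM in control replicates 1 to 5 and at 10.6, 14.2, 1.18, 5.74 and 4.97 CPM in D6 replicates 1 to 5. Yjefn3 was at 0, 0.107, 0.186, 0.542 and 0.355 CPM in control replicates 1 to 5 and at 9.5, 5.13, 0.56, 1.42 and 1.53 CPM in D6 replicates 1 to 5. All 3 genes were highest in D6 replicate 1 or 2 and lowest in replicate 3, as the relay neuron markers were. Their log2 fold changes were 3.98 (SE 0.68, adjusted p = 0.011) for Rab37, 3.86 (SE 0.59, adjusted p = 0.0065) for Adra2b and 4.06 (SE 0.89, adjusted p = 0.029) for Yjefn3, and Yjefn3 was called in 4 of the 10 fits that left out a library (highest adjusted p = 0.085).

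The level of the whole thalamic list was also followed across the groups of the MBH at PND22. Its mean log2(CPM + 0.5) lay between 3.41 and 3.53 in the 5 control libraries. It was 5.52, 6.17, 3.88, 5.03 and 4.32 in D6 replicates 1 to 5. Medians were 4.64 in D3, 5.23 in D12, 5.3 in K3, 5.36 in K6 and 5.72 in K12, and 29 of the 30 exposed libraries lay above all controls, among them all 15 ketoconazole libraries. A changed number of cells of a type and a changed amount of RNA per cell cannot be told apart in bulk tissue. Neither can the share of neighboring tissue in a dissection. Because the same 5 control libraries stand against every exposed group, an effect of exposure and a property of these control libraries cannot be told apart by these levels either.

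**Figure D1:**
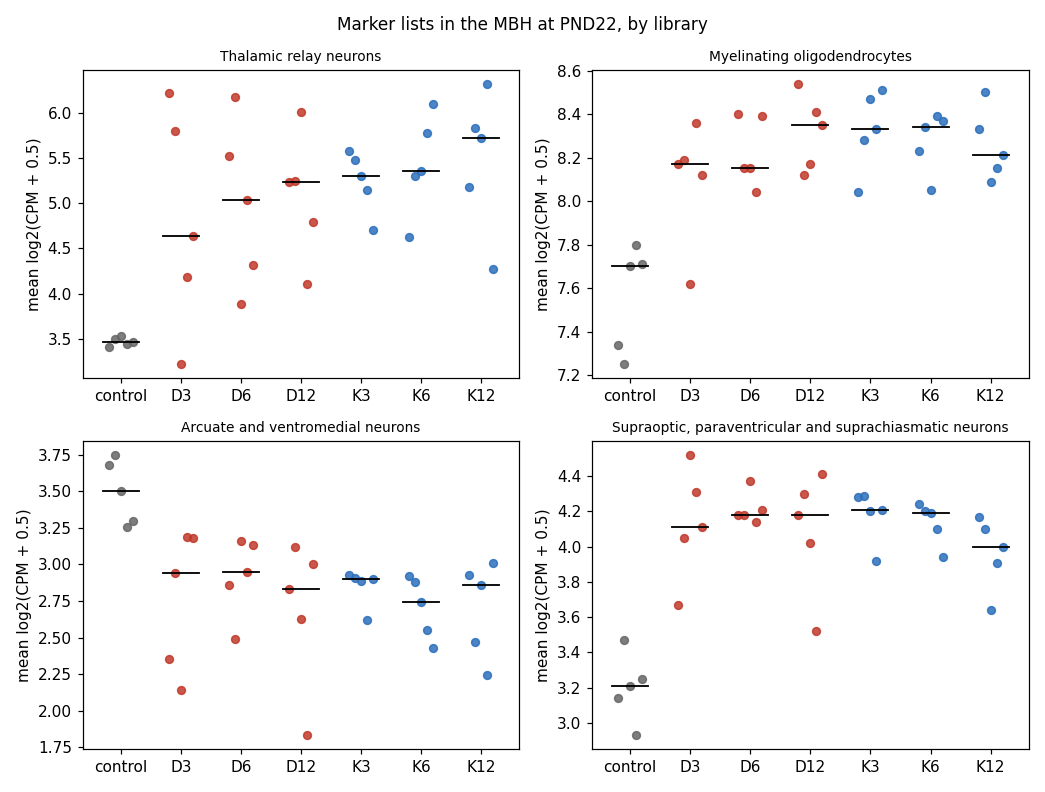
Levels of 4 marker lists in each library of the 7 groups of the MBH at PND22, as the mean of log2(CPM + 0.5) over the genes of a list; points are libraries and bars are medians of 5. The control libraries lie below 29 of the 30 exposed libraries for the thalamic and for the myelin list, below all 30 for the supraoptic, paraventricular and suprachiasmatic list, and above all 30 for the arcuate and ventromedial list.

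Many genes of mature oligodendrocytes rose in D6, and some genes of the newly formed stage fell. Of 17 tested markers of myelinating oligodendrocytes, 9 rose and 0 fell, with a median log2 fold change of 0.74. Without D6 replicate 1, 10 rose, and without control replicate 1, 6 rose. Among 12 markers of newly formed oligodendrocytes 3 fell and 1 rose, the last being Tcf7l2, which the thalamic list also holds. Of 10 tested precursor markers 2 fell. Without D6 replicate 1, 6 newly formed markers fell and 3 rose, and 4 precursor markers fell and 0 rose. Without control replicate 1, 2 newly formed and 0 precursor markers fell, and 0 of either list rose.

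Ndrg1, which has a role in myelin maintenance, was at 82.6, 68.9, 91.6, 81.4 and 77.5 CPM in control replicates 1 to 5 and at 185, 186, 177, 196 and 203 CPM in D6 replicates 1 to 5. Tf, the iron carrier transferrin, made in brain mainly by oligodendrocytes, was at 361, 262, 376, 296 and 371 CPM in control replicates 1 to 5 and at 1020, 864, 818, 1000 and 977 CPM in D6 replicates 1 to 5. Hapln2, a link protein of the matrix at nodes of Ranvier, was at 8.64, 9.08, 10.9, 11.5 and 8.48 CPM in control replicates 1 to 5 and at 21.8, 28.3, 25.6, 23.6 and 28.5 CPM in D6 replicates 1 to 5. Values within each group were close and the groups were far apart for all 3 genes, which had been picked among called genes whose groups did not overlap. On the log2 scale, the fold changes were 1.33 (SE 0.09, adjusted p = 0.00017) for Ndrg1, 1.58 (SE 0.13, adjusted p = 0.00025) for Tf and 1.48 (SE 0.13, adjusted p = 0.00029) for Hapln2. Each was called in all 10 fits that left out a library.

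Klk6, a secreted serine protease of oligodendrocytes, was at 22.3, 18.4, 24.1, 28.1 and 28.9 CPM in control replicates 1 to 5 and at 85, 56.6, 58.3, 54.6 and 72.8 CPM in D6 replicates 1 to 5. Grm3, a metabotropic glutamate receptor of glia and neurons, was at 20.9, 22, 22.9, 27 and 24.9 CPM in control replicates 1 to 5 and at 48, 51.2, 56.3, 64 and 56.6 CPM in D6 replicates 1 to 5. Gpr17, the receptor that marks the newly formed stage, was at 104, 102, 118, 97.5 and 97.1 CPM in control replicates 1 to 5 and at 18.8, 41.9, 48.2, 48.3 and 44.7 CPM in D6 replicates 1 to 5. None of these genes had overlapping groups, and Gpr17 was lowest in D6 replicate 1. The log2 fold change was 1.52 (SE 0.18, adjusted p = 0.003) for Klk6, 1.31 (SE 0.1, adjusted p = 0.00025) for Grm3 and -1.29 (SE 0.19, adjusted p = 0.0063) for Gpr17. Further increases were those of the myelin cytoskeleton genes Anln (1.52) and Ermn (1.08), the gap junction gene Gjb1 (1.24) and the myelin surface glycoprotein Mog (0.71). Enpp6, another newly formed marker, fell by 0.81 on the log2 scale. Mbp, which encodes myelin basic protein, had a log2 fold change of 0.81 (adjusted p = 0.078) and did not pass the test. The mean level of the myelin list was above all controls (7.25 to 7.8) in 29 of the 30 exposed libraries of this age and tissue, with D6 between 8.04 and 8.4.

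Peptides of the anterior hypothalamic nuclei were higher in D6. Of 10 tested markers of the supraoptic, paraventricular and suprachiasmatic nuclei 4 rose and 0 fell, with a median log2 fold change of 0.42. Oxt, the oxytocin precursor, was at 9.31, 13.6, 7.66, 2.28 and 7.81 CPM in control replicates 1 to 5 and at 130, 70.8, 129, 83.7 and 107 CPM in D6 replicates 1 to 5. Avp, the vasopressin precursor, was at 25.5, 42.6, 26, 8.78 and 23.1 CPM in control replicates 1 to 5 and at 105, 73.3, 135, 60.2 and 153 CPM in D6 replicates 1 to 5. Vip, a peptide of suprachiasmatic neurons, was at 0.676, 1.72, 4.09, 3.3 and 2.44 CPM in control replicates 1 to 5 and at 76.4, 37, 13, 12.8 and 12.1 CPM in D6 replicates 1 to 5. Every D6 value exceeded every control value for all 3 peptides. The fitted log2 fold changes were 3.78 (SE 0.37, adjusted p = 0.00089) for Oxt, 2.16 (SE 0.37, adjusted p = 0.011) for Avp and 3.77 (SE 0.67, adjusted p = 0.013) for Vip, and the fourth gene, Rgs16, a signaling regulator of suprachiasmatic neurons, had 2.23. Otp, Sim1, Crh and Trh, which mark other paraventricular neurons, did not pass the test, with log2 fold changes of 0.12, -0.17, 0.72 and 0.11.

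Oxt is a gene whose promoter carries known nuclear receptor elements, so the 250 bases before its RefSeq start are shown, on the plus strand of GRCr8 at chr3:138235504-138235753, with the estrogen response half-site AGGTCA of either strand in capitals.
Oxt promoter: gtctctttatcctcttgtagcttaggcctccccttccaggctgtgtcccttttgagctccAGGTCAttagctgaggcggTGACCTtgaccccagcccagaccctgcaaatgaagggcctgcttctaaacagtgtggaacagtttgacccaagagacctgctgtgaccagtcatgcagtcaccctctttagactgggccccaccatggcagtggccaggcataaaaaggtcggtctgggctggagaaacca
The half-sites begin 190 and 171 bases before the start. Of 33469 RefSeq promoters of the same length, 14.1% hold AGGTCA on either strand, and 0.0239% hold the full element, GGTCA and TGACC with 3 bases between them, which this window lacks. A match describes the letters alone, and no binding was measured.

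Several arcuate and ventromedial genes were lower in D6. Of 11 tested markers 4 fell and 0 rose, with a median log2 fold change of -0.55 (5 fell without D6 replicate 1 and 2 without control replicate 1). The mean level of these genes lay between 3.26 and 3.75 in control against 2.86, 2.49, 3.16, 2.95 and 3.13 in D6 replicates 1 to 5. Agrp, the appetite-stimulating peptide of arcuate neurons, was at 14.6, 16.6, 15.8, 17.3 and 11.2 CPM in control replicates 1 to 5 and at 9.97, 4.2, 4.98, 5.31 and 6.09 CPM in D6 replicates 1 to 5. Nr5a1, the transcription factor of ventromedial neurons, was at 13.5, 15, 9.84, 7.8 and 12.2 CPM in control replicates 1 to 5 and at 3.41, 3.58, 6.22, 4.69 and 5.34 CPM in D6 replicates 1 to 5. Nkx2-1, which specifies the ventral hypothalamus, was at 26, 27.8, 29.9, 24.5 and 23.9 CPM in control replicates 1 to 5 and at 5.76, 9.46, 13.4, 14.3 and 14 CPM in D6 replicates 1 to 5. The groups did not overlap, and D6 replicates 1 and 2, highest for the thalamic list, were lowest for Nr5a1 and Nkx2-1. Among D6 libraries, Agrp was instead highest in replicate 1 and lowest in replicate 2. In log2 units the changes were -1.2 (SE 0.24, adjusted p = 0.024) for Agrp, -1.25 (SE 0.2, adjusted p = 0.0085) for Nr5a1 and -1.14 (SE 0.2, adjusted p = 0.011) for Nkx2-1. Agrp was called in 4 of the 10 fits that left out a library (highest adjusted p = 0.066). The LIM homeobox gene Isl1 fell by 0.87 on the log2 scale and was called in 2 of the 10 fits that left out a library (highest adjusted p = 0.1). Pomc, the satiety peptide precursor of the same nucleus, had a log2 fold change of 0.03 (adjusted p = 0.96).

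Npw, the precursor of neuropeptide W, an appetite-regulating peptide, was at 2.08, 4.19, 2.69, 3.09 and 2.44 CPM in control replicates 1 to 5 and at 0.126, 0.0442, 0.112, 0 and 0.212 CPM in D6 replicates 1 to 5. All D6 values lay below all control values. The log2 fold change was -4.73 (SE 0.45, adjusted p = 0.00066), its size resting on very few D6 reads. Calcr and Glp1r, the receptors of calcitonin and of glucagon-like peptide 1, also fell, by 1.09 and 0.98 on the log2 scale, so that 4 of 13 tested appetite genes fell and 0 rose. Without D6 replicate 1, 5 of the 13 fell. Only 1 of the 13 fell without control replicate 1, and Calcr and Glp1r were called in 3 and 2 of the 10 fits that left out a library. Hdc, the enzyme that makes histamine in tuberomammillary neurons, was at 139, 90.9, 177, 115 and 112 CPM in control replicates 1 to 5 and at 30.6, 35.9, 45, 52.5 and 50.7 CPM in D6 replicates 1 to 5. All D6 values were below all control values, with a log2 fold change of -1.48 (SE 0.18, adjusted p = 0.003). The plot of single genes by library shows Oxt, Avp, Vip, Npw, Agrp and Hdc beside Tf, Ndrg1 and Alox15.

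**Figure D2:**
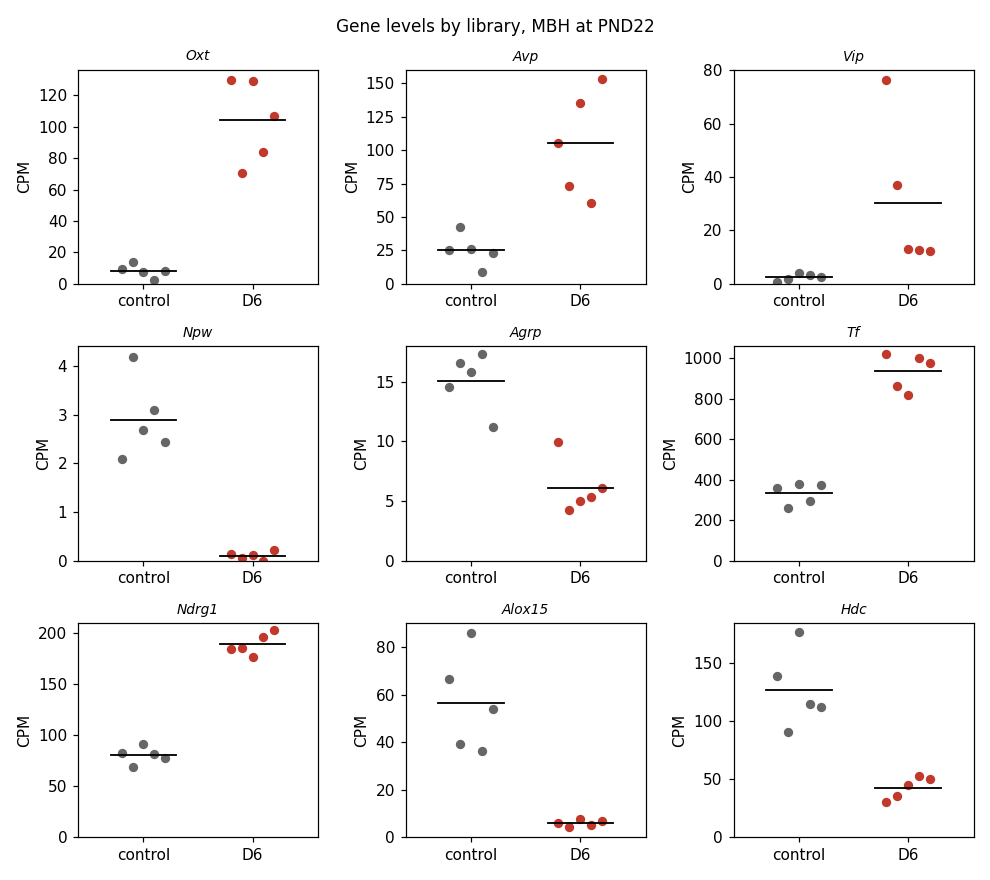
Levels of 9 genes in CPM in the 5 control and 5 D6 libraries of the MBH at PND22; points are libraries, bars are means of 5, and each panel has its own axis. No panel has overlapping groups, with Oxt, Avp, Vip, Tf and Ndrg1 higher and Npw, Agrp, Alox15 and Hdc lower in D6. For Tf, Ndrg1 and Alox15 the lack of overlap was a condition of their selection.

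Of the 10 genes of the GnRH pulse generator 2 fell and 0 rose. These were Pdyn, the dynorphin precursor that brakes the pulses, and Npvf, the precursor of the inhibitory peptide RFRP-3, with log2 fold changes of -0.63 and -0.87, and 0 fell without control replicate 1. The stimulating peptides did not pass the test, with -0.4 (SE 0.31) for Kiss1 (adjusted p = 0.43) and 0.45 (SE 0.3) for Tac3 (adjusted p = 0.35). Gnrh1 had 0.42 (SE 0.46) and an adjusted p of 0.56, at 1.07 CPM in control and 1.36 CPM in D6. Of the 15 tested steroid receptors, coactivators and estrogen-induced genes, 0 were called by edgeR's test or by DESeq2, and without D6 replicate 1 edgeR called 1, higher. Esr1, the estrogen receptor alpha, had a log2 fold change of -0.7 (adjusted p = 0.21), and the estrogen-induced genes Pgr and Greb1 had -0.06 and -0.02.

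The study grouped genes of interest into 7 lists chosen on these samples, so their counts are not independent evidence of a direction, and they stand beside the 3.14% higher and 2.27% lower of all genes. Among 6 puberty disorder genes, 2 rose and 1 fell. Nsmf, a gene of GnRH deficiency, was at 150, 144, 139, 140 and 130 CPM in control replicates 1 to 5 and at 730, 527, 154, 226 and 213 CPM in D6 replicates 1 to 5. Sema7a, a guidance cue for GnRH neurons, was at 32.2, 34, 41.1, 40.7 and 39.3 CPM in control replicates 1 to 5 and at 98.2, 118, 50, 63.1 and 58.9 CPM in D6 replicates 1 to 5. Igsf10, linked to delayed puberty, was at 29.7, 27, 29, 19.1 and 26 CPM in control replicates 1 to 5 and at 5.34, 8.62, 17, 16.1 and 13.6 CPM in D6 replicates 1 to 5. The groups did not overlap for these 3 genes. Log2 fold changes were 1.52 (SE 0.4, adjusted p = 0.05) for Nsmf, where the adjusted p is rounded up to the threshold, 1.16 (SE 0.24, adjusted p = 0.026) for Sema7a and -1.04 (SE 0.25, adjusted p = 0.04) for Igsf10, and they were called in 3, 4 and 3 of the 10 fits that left out a library.

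Of 10 tested genes for transcriptional and epigenetic control of puberty 3 rose and 1 fell, Sema7a among them. Cbx7, a subunit of the Polycomb repressive complex 1, was at 51.4, 47, 45.6, 46.6 and 49.1 CPM in control replicates 1 to 5 and at 58.3, 65.4, 69.2, 67.4 and 68.4 CPM in D6 replicates 1 to 5. Ezh1, a histone methyltransferase of the Polycomb repressive complex 2, was at 64.5, 71.8, 65.8, 70.4 and 72 CPM in control replicates 1 to 5 and at 60.3, 96.6, 94.7, 98.4 and 94.6 CPM in D6 replicates 1 to 5. Mkrn3, a maternally imprinted gene that restrains puberty onset, was at 3.48, 3.38, 3.62, 3.3 and 2.31 CPM in control replicates 1 to 5 and at 1.93, 1.37, 1.79, 1.52 and 1.22 CPM in D6 replicates 1 to 5. The groups did not overlap for Cbx7 and Mkrn3, while Ezh1 was below all controls in D6 replicate 1 and above them in the other D6 libraries. The log2 fold change of Cbx7 was 0.54 (SE 0.07, adjusted p = 0.0039), and it was called in all 10 fits that left out a library. Ezh1 had 0.45 (SE 0.11, adjusted p = 0.044) and was called in 1 of the 10 fits that left out a library (highest adjusted p = 0.12). Mkrn3 had -0.94 (SE 0.2, adjusted p = 0.028) and was called in 4 of the 10 fits that left out a library (highest adjusted p = 0.084). In the wider list of 22 Polycomb and DNA methylation genes, 2 rose and 1 fell, and 3 fell without D6 replicate 1.

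In GABAergic signaling 2 of 11 genes rose and 2 fell. Beside Gabrd, the rise was that of Trak2, a kinesin adaptor that carries GABA-A receptors and mitochondria, at 190, 180, 199, 202 and 219 CPM in control replicates 1 to 5 and at 296, 247, 251, 275 and 322 CPM in D6 replicates 1 to 5. Gabra5, an extrasynaptic GABA-A receptor subunit, was at 94, 99.4, 87.4, 91.8 and 86.1 CPM in control replicates 1 to 5 and at 61.5, 51.8, 74, 64.8 and 56.7 CPM in D6 replicates 1 to 5. Gabre, a subunit found in the hypothalamus and brainstem, was at 78.6, 95.5, 67.1, 67.7 and 67.6 CPM in control replicates 1 to 5 and at 8.66, 19.5, 32, 33.1 and 25.6 CPM in D6 replicates 1 to 5. Both receptor subunits were lower in all D6 libraries than in all controls. On the log2 scale, the fold changes were 0.58 (SE 0.11, adjusted p = 0.014) for Trak2, -0.48 (SE 0.1, adjusted p = 0.02) for Gabra5 and -1.6 (SE 0.27, adjusted p = 0.011) for Gabre. Trak2, Gabra5 and Gabre were called in 9, 6 and 10 of the 10 fits that left out a library. In glutamatergic signaling 3 of 9 genes rose and 0 fell, namely Slc17a7, Grm3 and Grid2ip, a postsynaptic scaffold that the thalamic list also holds, at 2.17, 1.99, 1.02, 1.08 and 1.07 CPM in control replicates 1 to 5 and at 9.71, 25.2, 2.97, 9.39 and 5.4 CPM in D6 replicates 1 to 5. Its log2 fold change was 2.96 (SE 0.54, adjusted p = 0.014). Of 6 tested calcium signaling genes 0 were called by edgeR or DESeq2, and limma-voom called 1, lower.

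Among 11 neuropeptides and receptors 3 rose and 4 fell. Beside Oxt, the increases were those of Gpr37, a receptor of oligodendrocytes, at 128, 131, 145, 135 and 144 CPM in control replicates 1 to 5 and at 137, 185, 182, 202 and 217 CPM in D6 replicates 1 to 5, and of the placental growth factor Pgf, at 5.02, 3.49, 5.2, 3.41 and 4.13 CPM in control replicates 1 to 5 and at 7.57, 4.86, 7.17, 6.31 and 7.62 CPM in D6 replicates 1 to 5. The D6 and control ranges overlapped for both, by 1 D6 library each. The fitted log2 fold changes were 0.52 (SE 0.1, adjusted p = 0.02) for Gpr37 and 0.75 (SE 0.18, adjusted p = 0.039) for Pgf. Gpr37 was called in 7 of the 10 fits that left out a library, and Pgf in 2 (highest adjusted p = 0.098). Tshr, the thyrotropin receptor of tanycytes and other cells, was at 12.7, 11.1, 9.38, 8.45 and 11.4 CPM in control replicates 1 to 5 and at 3.32, 3.98, 5.88, 5.59 and 7.41 CPM in D6 replicates 1 to 5. Pdyn was at 158, 199, 138, 138 and 136 CPM in control replicates 1 to 5 and at 80.2, 67.1, 113, 88.5 and 122 CPM in D6 replicates 1 to 5. Both were lower in every D6 library than in every control library. Crhr2, a receptor of urocortins in the ventromedial nucleus, was at 14.4, 14.7, 8.59, 9.7 and 8.04 CPM in control replicates 1 to 5 and at 3.32, 3.89, 7.45, 5.97 and 5.61 CPM in D6 replicates 1 to 5. Ghr, the growth hormone receptor, was at 27.9, 26.9, 20.7, 20.8 and 22.4 CPM in control replicates 1 to 5 and at 9.84, 11.7, 17.3, 18.2 and 16.1 CPM in D6 replicates 1 to 5. These groups did not overlap either. In log2 units the changes were -0.94 (SE 0.2, adjusted p = 0.026) for Tshr, -0.63 (SE 0.16, adjusted p = 0.045) for Pdyn, -1.0 (SE 0.23, adjusted p = 0.036) for Crhr2 and -0.62 (SE 0.16, adjusted p = 0.045) for Ghr. Tshr, Pdyn, Crhr2 and Ghr were called in 6, 3, 2 and 3 of the 10 fits that left out a library.

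Of 15 genes for the control of metabolism 6 rose and 4 fell. The falls were those of Nr5a1, Npw, Gpr17 and Agrp, and Avp was among the increases. Car2, a carbonic anhydrase of oligodendrocytes, was at 117, 97.8, 144, 145 and 152 CPM in control replicates 1 to 5 and at 389, 239, 237, 247 and 298 CPM in D6 replicates 1 to 5. Igfbp5, which binds insulin-like growth factors, was at 217, 180, 224, 150 and 211 CPM in control replicates 1 to 5 and at 236, 333, 355, 373 and 336 CPM in D6 replicates 1 to 5. Cck, the cholecystokinin precursor, was at 4.87, 9.24, 10.9, 11.8 and 7.99 CPM in control replicates 1 to 5 and at 177, 95.7, 9.69, 22.9 and 25.1 CPM in D6 replicates 1 to 5. The groups did not overlap for Car2 and Igfbp5, while D6 replicate 3 was within the control range of Cck and D6 replicates 1 and 2 were far above it. Log2 fold changes were 1.2 (SE 0.19, adjusted p = 0.0071) for Car2, 0.82 (SE 0.12, adjusted p = 0.0065) for Igfbp5 and 3.03 (SE 0.73, adjusted p = 0.038) for Cck. Adora1, the adenosine A1 receptor, and Arg1, the urea cycle enzyme arginase, had 0.58 (SE 0.15, adjusted p = 0.045) and 0.76 (SE 0.17, adjusted p = 0.031). Their levels were 111, 89.4, 109, 102 and 103 CPM in control and 163, 177, 111, 140 and 126 CPM in D6 replicates 1 to 5 for Adora1, and 7.38, 7.41, 8.22, 12.2 and 10.3 CPM and 16.5, 14.8, 13.6, 13.3 and 14.2 CPM for Arg1. The ranges met for Adora1 and did not overlap for Arg1. Cck, Adora1 and Arg1 were called in 4, 2 and 4 of the 10 fits that left out a library. Without control replicate 1, higher and lower calls numbered 0 and 0 for puberty disorder, 1 and 0 for transcriptional and epigenetic control, 0 and 1 for GABAergic signaling, 2 and 0 for glutamatergic signaling, 1 and 0 for neuropeptides and receptors, and 3 and 3 for metabolism. Without D6 replicate 1 they were 3 and 4 for transcriptional and epigenetic control, 3 and 3 for GABAergic signaling, 4 and 2 for glutamatergic signaling, 4 and 4 for neuropeptides and receptors, 7 and 6 for metabolism and 0 and 1 for calcium signaling. The share of all genes called also changed, from 5.41% with all libraries to 1.12% without control replicate 1 and 15% without D6 replicate 1.

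**Figure D3:**
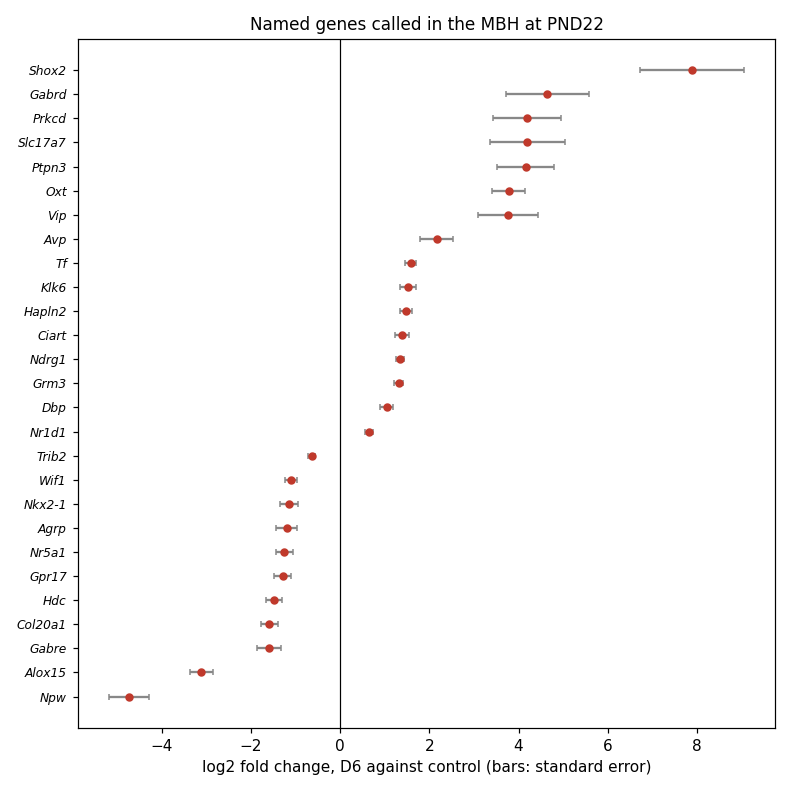
Log2 fold changes of D6 against control in the MBH at PND22 for 27 named genes, with bars of 1 standard error, from edgeR's fit over 10 libraries. The thalamic gene Shox2 lies highest at 7.89 and Npw lowest at -4.73, and errors are wider for thalamic genes than for the oligodendrocyte genes.

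A few genes of the circadian clock rose in D6. The molecular clock is a loop in which CLOCK and BMAL1 bind E-boxes and induce their own repressors. Of 19 clock genes 3 rose and 0 fell, with a median log2 fold change of 0.27, and without D6 replicate 1 the numbers were 6 and 1. Dbp, an output transcription factor of the clock, was at 69.3, 64.4, 63.6, 55.9 and 69.7 CPM in control replicates 1 to 5 and at 154, 114, 110, 103 and 139 CPM in D6 replicates 1 to 5. Ciart, a repressor within the loop, was at 7.43, 5.64, 5.15, 4.88 and 6.44 CPM in control replicates 1 to 5 and at 15.8, 16.8, 13.7, 11.6 and 13.9 CPM in D6 replicates 1 to 5. Nr1d1, the nuclear receptor REV-ERB alpha, was at 52.4, 56.5, 50.2, 49.4 and 49 CPM in control replicates 1 to 5 and at 61.3, 77.1, 85.4, 72.9 and 84.8 CPM in D6 replicates 1 to 5. All 3 genes were higher in every D6 library than in every control library. On the log2 scale, the fold changes were 1.04 (SE 0.14, adjusted p = 0.0039) for Dbp, 1.38 (SE 0.16, adjusted p = 0.003) for Ciart and 0.65 (SE 0.09, adjusted p = 0.0042) for Nr1d1. The loop's other components did not pass the test, with -0.25 for Arntl, which encodes BMAL1, -0.2 for Clock, 0.17 for Per1 and -0.05 for Per2. The hour of collection is not given in the labels.

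The promoters of Ciart and of the second RefSeq start of Nr1d1 are shown because these clock genes rose and hold the E-box CACGTG, in capitals, within the 250 bases before the start (GRCr8, minus strand, chr2:186112247-186112496 and chr10:84229455-84229704).
Ciart promoter: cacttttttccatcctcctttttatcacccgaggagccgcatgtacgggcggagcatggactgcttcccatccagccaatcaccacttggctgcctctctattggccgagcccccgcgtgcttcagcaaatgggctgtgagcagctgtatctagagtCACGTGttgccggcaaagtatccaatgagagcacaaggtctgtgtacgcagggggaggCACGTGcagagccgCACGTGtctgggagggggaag
Nr1d1 promoter, second start: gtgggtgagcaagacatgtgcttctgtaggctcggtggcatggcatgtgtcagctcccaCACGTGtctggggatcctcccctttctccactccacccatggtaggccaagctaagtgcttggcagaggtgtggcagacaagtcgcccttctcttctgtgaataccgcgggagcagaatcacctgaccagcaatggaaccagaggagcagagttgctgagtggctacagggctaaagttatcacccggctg
Ciart has 3 E-boxes that begin 93, 35 and 21 bases before its start, and Nr1d1 has 1 at 191 bases. The window of the first start of Nr1d1 and that of Dbp have 0. Among 16 listed clock genes with a promoter sequence, 5 held the motif in at least 1 of their promoters. Of all 33469 promoters 5.59% held it, a share counted by promoter and not by gene, so these numbers cannot be compared directly. No binding was measured.

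Alox15 had the largest decrease among the called genes that passed the level and overlap criteria for named genes. Npw fell further but did not reach the level criterion. Alox15, an arachidonate lipoxygenase, was at 66.8, 39.5, 86, 36.5 and 54.2 CPM in control replicates 1 to 5 and at 6.27, 4.29, 7.95, 5.17 and 6.98 CPM in D6 replicates 1 to 5. Its groups were far apart, and the log2 fold change was -3.12 (SE 0.26, adjusted p = 0.00026). Slc4a1, the anion exchanger of red cells, was at 7.05, 3.38, 11, 3.25 and 6.04 CPM in control replicates 1 to 5 and at 1.09, 1.9, 1.74, 1.19 and 1.32 CPM in D6 replicates 1 to 5. Its log2 fold change of -2.0 (SE 0.34, adjusted p = 0.011) stood beside that of Alas2, the heme synthesis enzyme of red cells (-1.24), and 2 of 7 tested blood genes fell. This number was 6 without D6 replicate 1 and 1 without control replicate 1, and Alas2 was called in 4 of the 10 fits that left out a library (highest adjusted p = 0.091). The mean log2(CPM + 0.5) of the blood genes was 4.5 to 6.06 in control and 3.82 to 4.85 in D6, and the part of blood in other decreases was not tested. The vomeronasal receptor Vom2r44 was at 7.29, 3.92, 6.69, 6.12 and 4.4 CPM in control replicates 1 to 5 and at 0.757, 1.72, 0.168, 0.237 and 2.17 CPM in D6 replicates 1 to 5. Pgr15l was at 38.8, 42.9, 28.5, 29.9 and 30.6 CPM in control replicates 1 to 5 and at 1.56, 6.1, 13.3, 16.2 and 10.3 CPM in D6 replicates 1 to 5. The tolloid-like metalloprotease Tll2 was at 4.97, 5.48, 4.04, 2.55 and 4.26 CPM in control replicates 1 to 5 and at 0.294, 0.884, 1.79, 2.18 and 1.8 CPM in D6 replicates 1 to 5. All 3 had groups without overlap, a condition for naming them, and reads of Vom2r44 may be shared with near-identical receptor genes. The log2 fold changes of -2.38 (SE 0.53, adjusted p = 0.03), -1.79 (SE 0.42, adjusted p = 0.037) and -1.56 (SE 0.39, adjusted p = 0.045), in that order, were called in 5, 3 and 2 of the 10 fits that left out a library.

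Col20a1, a collagen chain, was at 11.4, 8.11, 10.9, 7.8 and 11.7 CPM in control replicates 1 to 5 and at 1.89, 2.87, 3.75, 3.98 and 3.28 CPM in D6 replicates 1 to 5. Wif1, a secreted inhibitor of Wnt signaling, was at 20, 14.3, 20.9, 16.9 and 17 CPM in control replicates 1 to 5 and at 8.41, 6.94, 7.34, 7.59 and 8.36 CPM in D6 replicates 1 to 5. Trib2, a pseudokinase, was at 76.1, 76.6, 72.3, 83 and 77.7 CPM in control replicates 1 to 5 and at 42.1, 44.3, 48.3, 51.8 and 46.5 CPM in D6 replicates 1 to 5. The D6 libraries were below the controls without overlap for each, as the selection of these genes required. The fitted log2 fold changes were -1.59 (SE 0.19, adjusted p = 0.003) for Col20a1, -1.11 (SE 0.13, adjusted p = 0.003) for Wif1 and -0.64 (SE 0.08, adjusted p = 0.003) for Trib2, each called in all 10 fits that left out a library. Fam227a was at 41.4, 41.4, 27.4, 23.6 and 20.8 CPM in control replicates 1 to 5 and at 3.41, 9.2, 13.7, 10.8 and 12.1 CPM in D6 replicates 1 to 5. Its log2 fold change was -1.58 (SE 0.31, adjusted p = 0.02), and it was called in 7 of the 10 fits that left out a library (highest adjusted p = 0.065). Of 6 tested pituitary markers 2 rose and 1 fell, and without control replicate 1, 1 rose and 0 fell. Tshb, the beta chain of thyrotropin that the pars tuberalis also makes, rose from 19.4, 9.88, 24, 6.18 and 16.6 CPM in control to 53.3, 49.4, 58.6, 58.2 and 64.1 CPM in D6 replicates 1 to 5, with a log2 fold change of 1.99 (SE 0.29, adjusted p = 0.0056). Pitx1, a transcription factor of pituitary development, rose by 1.4 (SE 0.32, adjusted p = 0.035) on the log2 scale at 0.434, 0.43, 0.418, 0.163 and 0.4 CPM in control and 0.799, 0.973, 0.504, 1.04 and 1.32 CPM in D6, and was called in 2 of the 10 fits that left out a library (highest adjusted p = 0.089). Tbx19, a transcription factor of corticotrophs, was at 6.85, 10.4, 6.22, 5.96 and 6.93 CPM in control replicates 1 to 5 and at 2.06, 2.83, 3.81, 3.65 and 4.13 CPM in D6 replicates 1 to 5. Its groups did not overlap, with a log2 fold change of -1.06 (SE 0.2, adjusted p = 0.019), and it was called in 9 of the 10 fits that left out a library (highest adjusted p = 0.052). The summed level of the 6 tested pituitary genes was 641 to 901 CPM in control and 491 to 876 CPM in D6.

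Between D6 and the other doses of DES, few differences passed the test. Against D3 0 of 14729 genes were called by edgeR's quasi-likelihood test, with 291 at an unadjusted p-value under 0.05, and DESeq2 and limma-voom called 1 gene each. Against D12 0 of 14784 genes were called, with 124 at an unadjusted p-value under 0.05 and 5 called by DESeq2. Without D6 replicate 1, edgeR's test had 1315 genes at an unadjusted p-value under 0.05 against D3 and 2626 against D12. It called 1 and 0 of these. Limma-voom had 2261 and 3463 genes at that threshold with all libraries kept. The few calls therefore do not show that the doses are alike. Differences on the log2 scale were -0.04 (SE 0.44) against D3 and -0.19 (SE 0.27) against D12 for Oxt, 0.01 (SE 0.11) and -0.03 (SE 0.09) for Ndrg1, and 0.21 (SE 0.25) and -0.02 (SE 0.23) for Alox15. Those of Prkcd were 0.07 (SE 0.96) and 0.06 (SE 0.71), so a difference of several fold between doses could not be detected for thalamic genes. Against the same controls, 2247 of 14765 genes were called in D3 (15.2%), 1169 of them higher (7.92%) and 1078 lower (7.3%), and 5256 of 14870 in D12 (35.3%), 2691 of them higher (18.1%) and 2565 lower (17.2%). The log2 fold changes against control in D3, D6 and D12 were 3.81, 3.78 and 3.96 for Oxt, 1.31, 1.33 and 1.35 for Ndrg1, -3.33, -3.12 and -3.12 for Alox15, and -1.45, -1.2 and -1.35 for Agrp. These 3 contrasts share their control libraries.

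Mean levels of Ndrg1 and Alox15 after ketoconazole were near those of D6, while those of Oxt were more variable. Mean levels in K3, K6 and K12 were 196, 206 and 196 CPM for Ndrg1, beside 80.4 ± 8.25 CPM in control and 189 ± 10.3 CPM in D6 (mean ± SD, n = 5). Those of Oxt were 127, 85.1 and 58.5 CPM, beside 8.14 ± 4.07 and 104 ± 26.6 CPM. The K12 libraries had an SD of 27.1 CPM for Oxt, and the lowest of them was at 14.6 CPM, close to the controls. Those of Alox15 were 7.85, 5.27 and 7.89 CPM, beside 56.6 ± 20.4 and 6.13 ± 1.45 CPM. By group means, the control group is the one that lies apart for each of these genes. Tested directly, in a comparison chosen after the data were seen, D6 differed from K3, K6 and K12 in 0 genes of 14758, 14662 and 14771 by edgeR's test, with 372, 421 and 388 genes at an unadjusted p-value under 0.05. Without D6 replicate 1, it called 0, 0 and 3 genes. An absence of calls does not show equal levels, since the D6 libraries varied widely.

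Most D6 differences of the MBH at PND22 did not pass edgeR's test at later ages or in the POA. At PND42, 72 of 14715 MBH genes differed between D6 and control (0.489%), of which 30 were higher (0.204%) and 42 lower (0.285%). DESeq2 called 574 genes at this age, and edgeR between 16 (without D6 replicate 3) and 522 (without control replicate 5) when a library was left out. Of the 803 genes called at PND22, 793 were tested at PND42 and 19 were called there, 17 with the same sign. At PND90 0 of 14742 genes were called by edgeR's test, with 1764 at an unadjusted p-value under 0.05 and 96 called by DESeq2. In the POA at PND22 0 of 14244 genes were called, with 553 at an unadjusted p-value under 0.05 and 1 called by DESeq2. Medians of the log2 fold change of the genes higher at PND22 were 0.04 at PND42, -0.03 at PND90 and -0.08 in the POA, and those of the genes lower at PND22 were -0.14, 0.01 and 0.02.

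The effect itself differed between PND22 and PND42 for 162 of 15221 genes (1.06%), 122 of them more positive at PND22 (0.802%), between PND22 and PND90 for 815 of 15182 (5.37%) and between MBH and POA for 248 of 15003 (1.65%), by the interaction in edgeR's quasi-likelihood test. Tf had a log2 fold change of 1.58 (SE 0.13) at PND22, 0.1 (SE 0.1) at PND42 and -0.24 (SE 0.11) at PND90, and the effect at PND22 exceeded that at PND42 by 1.47 (SE 0.16, adjusted p = 9.6e-05) and that at PND90 by 1.83 (SE 0.18, adjusted p = 1.8e-05). Oxt had 0.12 (SE 0.29) and -0.77 (SE 0.61) at the later ages, with differences of 3.64 (SE 0.5, adjusted p = 0.00074) and 4.56 (SE 0.84, adjusted p = 0.0051). Alox15 was also lower in D6 at PND42, with -2.72 (SE 0.35, adjusted p = 0.0053), and its effects at PND22 and PND42 differed by -0.41 (SE 0.46, adjusted p = 0.65), which did not pass the test. Gpr17 was likewise lower at PND42, with -0.83 (SE 0.11, adjusted p = 0.0053). Hdc, with 0.09 (SE 0.14) at PND42, had a more negative effect at PND22, with a difference of -1.58 (SE 0.25, adjusted p = 0.002). Tf and Hdc thus differed from control at PND22 without a call at PND42, and Alox15 and Gpr17 were called at both ages.

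Levels of the later controls stand beside these values. Control means for Tf were 333 CPM at PND22, 922 CPM at PND42 and 444 CPM at PND90, and the D6 mean at PND22 was 936 CPM. For Oxt the control means were 8.14, 104 and 41.5 CPM, and the D6 mean at PND22 was 104 CPM. For Alox15 they were 56.6, 5.27 and 48.6 CPM, beside 6.13 CPM. In all 3 genes the D6 level at PND22 was near the control level at PND42. The PND90 control level was near the PND22 control level for Tf and Alox15 and lay between those of the younger ages for Oxt. The thalamic list had a median level of 4.74 in the controls at PND42 (3.61 to 5.66) and 3.71 in those at PND90, on the mean log2(CPM + 0.5) scale.

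In the POA of the same age, Ndrg1 had a log2 fold change of -0.17 (SE 0.1) and Alox15 one of 0.06 (SE 0.27). The effects in MBH and POA differed by 1.5 (SE 0.14, adjusted p = 0.0025) for Ndrg1 and by -3.16 (SE 0.4, adjusted p = 0.0062) for Alox15. Scn4b, a sodium channel subunit, and Brs3, a bombesin-like receptor of hypothalamic energy balance, differed by 2.14 (SE 0.24, adjusted p = 0.0043) and -1.71 (SE 0.19, adjusted p = 0.0043). For Oxt the difference was 3.32 (SE 0.39, adjusted p = 0.0051). The library labelled as control replicate 4 of the POA had a mean log2(CPM + 0.5) of 3.1 over the mammillary markers, where the other 9 POA libraries had 0.3 to 0.63, and without its rat 134 genes differed between the tissues.

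**Figure D4:**
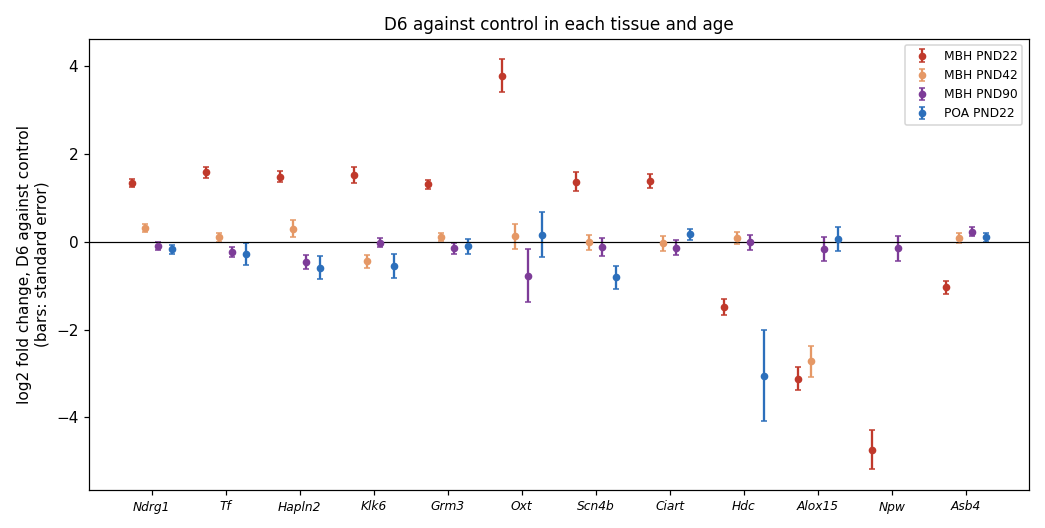
Log2 fold changes of D6 against control for 12 genes in the MBH at 3 ages and in the POA of PND22 rats, with bars of 1 standard error; each fit has 5 libraries per group. The PND22 points of the MBH stand away from 0 for all 12 genes. Of the other sets those farthest from 0 are Hdc in the POA, at -3.05 with a wide error, and Alox15 in the MBH at PND42, at -2.72. The POA controls include replicate 4, the library with high mammillary markers, and its part in the Hdc value was not tested. Npw was not tested in the MBH at PND42 or in the POA.

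A pair of lists separated the same libraries by genes that differ between PND42 and PND22 in other tissue. Lists of 100 genes each, higher or lower at PND42 than at PND22, were taken from D3 and D12 libraries of the POA, with no control or D6 library. In the MBH at PND22, 52 of the 100 higher genes rose in D6 and 0 fell, beside the 3.14% of all genes that rose, with a median log2 fold change of 0.61. Of the 100 lower genes 30 fell and 0 rose, beside 2.27% of all genes that fell, with a median of -0.54. The score, the mean log2(CPM + 0.5) of the higher genes minus that of the lower genes, was -0.58 to -0.18 in control and 0.55 to 1.84 in D6. Its medians were 1.01 in D3 and 1 in D12, and 0.8 in the controls of the MBH at PND42. The median of -0.2 in the controls at PND90 lay at the level of the PND22 controls, so that the score does not rise steadily with age in this tissue. In the POA at PND22 the medians were -0.46 in control and -0.71 in D6.

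**Figure D5:**
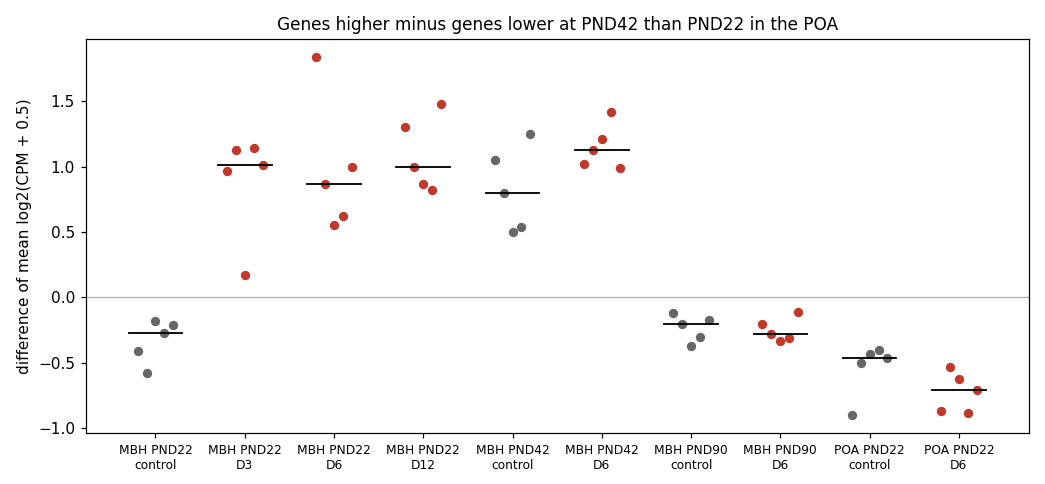
Score of the lists of genes higher and lower at PND42 than at PND22 in 10 groups of 5 libraries; points are libraries and bars are medians. Control libraries of the MBH at PND22 lie between -0.58 and -0.18, below D6 libraries of the same age, and the PND90 libraries lie near the PND22 controls.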

How the data were processed

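RNA of 1 rat brain region per library was sequenced as stranded, paired-end messenger RNA. The authors used the nf-core rnaseq pipeline (STAR, assembly Rnor_6.0, featureCounts with Ensembl annotation), and they deposited raw counts of 32883 genes, without normalization and with 1 column per library. How the counting treated strand and reads with several alignments is not given in the sources used here, so values of antisense, overlapping and near-identical genes are uncertain. Libraries were grouped by their labels, and 0 columns were left unassigned.

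Counts were tested with the quasi-likelihood test of edgeR 4.0.16 in R 4.3.3, two-sided, over the 5 libraries of each group in a comparison. Library sizes were scaled by TMM, and filterByExpr kept genes at a minimum count of 10. Genes with a Benjamini-Hochberg adjusted p-value under 0.05 over all genes tested are called, without a fold threshold. CPM are per 1000000 reads on genes. SEs are the absolute log2 fold change over the square root of F. Between ages, interactions were fitted over the 20 libraries concerned; between tissues, the rat was a block, since a rat number of the labels names a library of either tissue. Depths of 17855000 to 23779317 reads leave counts of 3 or fewer uninformative, and this covers counting error only.

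The members and gene lists were chosen with earlier results of these data known. Named are the 8 called genes with the largest change and the 4 with the smallest p-value in each direction (mean log2 CPM of at least 1, no overlap of the groups), the genes of the study's lists, up to 4 called genes of each other list and 3 per direction of each interaction. DESeq2 1.42.0, limma 3.58.1 with quality weights, other scalings and filters, a replicate block and each library left out were the alternatives, and the comparisons with ketoconazole were added after the data were seen. The scripts were tested on simulated data. Promoters are from RefSeq on GRCr8, a build other than that of the counts, and were matched by symbol.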

Additional observations from a re-analysis of the deposited data

Results flagged for a closer look

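In 5 of 128 sets of 5 values tested, the end value lay far from the others, with a gap over the range above the critical value of 0.71. Chance flags about 1 in 20 such sets. D6 replicate 1 held 4 of them. Ezh1 was at 60.3 CPM in it and at 94.6 to 98.4 CPM in the other D6 libraries, Gpr17 was at 18.8 CPM against 41.9 to 48.3 CPM, ribosomal protein genes took 2.81% of reads against 1.08 to 1.39%, and the SD of its genes from the group mean was 0.6 on the log2 scale against 0.21 to 0.3. Mkrn3 was at 2.31 CPM in control replicate 5 and at 3.3 to 3.62 CPM in the other controls.

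The effect of D6 in the MBH differed between PND22 and PND42, by an interaction in edgeR's quasi-likelihood test, for Tf (difference of log2 fold changes 1.47), Grm3 (1.2) and Klk6 (1.96), which were more positive at PND22, and for Hdc (-1.58), Angpt4 (-1.46) and Asb4 (-1.13), which were more negative. Between PND22 and PND90 it differed for Tf (1.83), Ndrg1 (1.42), Hapln2 (1.95), Npw (-4.57), Mblac2 (-0.86) and Atxn7l3b (-0.67). Between MBH and POA at PND22 it differed for Ndrg1 (1.5), Scn4b (2.14), Myh14 (1.1), Brs3 (-1.71), Vwa3a (-1.47) and Alox15 (-3.16). Adjusted p-values of these differences lay between 1.8e-05 (Tf and Ndrg1, PND90) and 0.0062 (Alox15, POA).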

How the results depend on the processing

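The number of genes called changed with the libraries, the tool and the replicate block. D6 against control gave 803 genes, and 1975 with DESeq2, 2228 with limma-voom, 1354 in one fit of control and the 3 DES groups (2181 with DESeq2), 1637 in one fit of all 7 groups, and 1249 without control replicate 1 and D6 replicate 1 together. With library size alone it gave 798 genes, 41.5% of them higher instead of 58%, and the median of all genes moved from 0.02 to -0.07. Leaving out 1 library gave from 167 (without control replicate 1) to 2242 genes (without D6 replicate 1) for D6, from 955 (without control replicate 1) to 4465 (without D3 replicate 3) for D3 against control, from 16 (without D6 replicate 3) to 522 (without control replicate 5) at PND42, from 0 to 8 (without control replicate 4) at PND90, and from 0 to 1 (without D6 replicate 1) for D6 against D3. DESeq2 called 574 genes at PND42, 96 at PND90, 1 in the POA, 1 against D3 and 5 against D12. It called 627 and 1533 for the interactions with PND42 and PND90 and 884 for that with the POA, which had 585 without the rat as a block and 134 without rat 87. Limma-voom called 4498 genes for D3, 709 at PND42 and 1 against D3.

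With the replicate number as a block, 44 genes were called for D6 (36 higher), 881 for D3 and 3 at PND42. The numbers mark no shared litter or day in the labels, and correlations between deviations of same-numbered libraries were -0.205, 0.0737, 0.0296, -0.157 and -0.0825, so the block was not used as a pairing. Correlations between the MBH and POA libraries of a rat were also near 0, from -0.117 to 0.116, so the rat block rests on the labels alone. Of 101 named genes called, 0 changed direction under any alternative, 45 kept their call whichever library was left out, and 54 lost it without control replicate 1. All 101 were called by DESeq2 and without D6 replicate 1, 97 by limma-voom and 21 with the replicate block. The cause of these shifts was not tested. The spread limits what can be seen: the common coefficient of biological variation was 0.285 in D6, 0.157 without replicate 1, and 0.12 in control.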

Other observations

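Several further gene groups of the MBH at PND22 moved in part. Of 21 cholesterol synthesis genes 3 rose in D6, namely Cyp51, Fdft1 and Msmo1, which encode enzymes of the pathway, with log2 fold changes of 0.46 (SE 0.11, adjusted p = 0.037), 0.36 (SE 0.08, adjusted p = 0.037) and 0.57 (SE 0.13, adjusted p = 0.03) in edgeR's quasi-likelihood test. Without D6 replicate 1, 10 rose and 1 fell, and without control replicate 1, 0 were called. Srd5a1, the 5-alpha reductase that acts on testosterone and progesterone, and Hsd17b11, a 17-beta-hydroxysteroid dehydrogenase, rose, with 0.77 (SE 0.14, adjusted p = 0.014) and 0.59 (SE 0.1, adjusted p = 0.0086), as the only 2 of 15 tested genes of steroid synthesis and turnover. The Polycomb gene Cbx6 fell, with -0.65 (SE 0.09, adjusted p = 0.0039), at a mean of 303 CPM (SD 1.9) in control and 183 CPM (SD 25.9) in D6.

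Of 18 matrix genes the hyaluronan synthase Has2 and the basement membrane collagen Col4a1 fell, with -1.05 (SE 0.23, adjusted p = 0.029) and -1.09 (SE 0.23, adjusted p = 0.028), beside the rise of Hapln2, and 7 fell without D6 replicate 1 and 0 without control replicate 1. Dcx, a microtubule protein of immature neurons, had -0.78 (SE 0.2, adjusted p = 0.045) and the tubulin-binding Stmn1 0.91 (SE 0.21, adjusted p = 0.032), and they were called in 3 and 4 of the 10 fits that left out a library. Of 13 mitochondrially encoded genes Mt-nd1 and Mt-nd2 rose, with 0.48 and 0.44, and were called in 3 and 2 of those fits, with 0 of the 13 called without control replicate 1. Of 17 tested immediate early genes 1 rose, Dusp1, with 1.43 (SE 0.35, adjusted p = 0.04), called in 3 of those fits, and Fos had 0.94 (adjusted p = 0.08). For 12 microglia and 22 tested PPAR target genes edgeR called 0, and DESeq2 called 0 and 2. Summed levels of the microglia genes were 475 to 610 CPM in control and 545 to 713 CPM in D6.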
